A study of Mus musculus with 6 samples.

Results

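The 10 growth factor and receptor genes of the testicular niche described here, of 51912 genes in the count table, were followed across 6 libraries of sorted spermatogonial cells. They were chosen by name, as the rows whose Ensembl identifiers map to the symbols Gdnf, Kitl, Csf1, Cxcl12, Fgf2 and Igf1 (6 ligands) and Cxcr4, Fgfr1, Igf1r and Pdgfra (4 receptors), and all 10 had a row. Testes were taken at postnatal day 4 from mice of strain C57BL/6J, and cells were selected on a flow sorter for THY1 at the surface and for lack of c-KIT. Their RNA was amplified by Smart-Seq2, a full-length cDNA method for small amounts of RNA. The groups were 3 wild type libraries and 3 libraries labelled Bud31-vKO, in which Bud31, a gene of the spliceosome, was knocked out by the Cre-loxP method. The labels do not name the promoter that drives Cre, nor which alleles the wild type mice carry, nor whether a library came from 1 animal or a pool. The table heads its columns C1 to C3 and T1 to T3, which were read as wild type and Bud31-vKO 1 to 3, a reading that the labels do not spell out. Values are given in that order, and "wild type 1 to 3" stands for the 3 libraries of the group. Nothing says that libraries of a group are separate animals, so p-values reflect no more than how these samples vary, possibly for technical reasons.

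Spermatogonial stem cells are held in a niche by signals from the somatic cells around them. GDNF, made by Sertoli and peritubular myoid cells, binds the co-receptor GFRA1 and the tyrosine kinase RET on stem cells and sustains their self-renewal, and FGF2 acts beside it through FGF receptors. KIT ligand from Sertoli cells acts on KIT when spermatogonia begin to differentiate. CSF1 signals through CSF1R, CXCL12 attracts cells that carry CXCR4, and IGF1 binds IGF1R. PDGFRA is a receptor for PDGF ligands on interstitial and stromal cells. Ligand genes of this kind are known mainly from somatic cells, while a sort for THY1 without KIT is used to enrich germ cells.

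The libraries held 13240704 to 18744466 reads, and reads were found for 12464 to 22300 genes. Wild type library 3 (13762 genes) and Bud31-vKO library 2 (12464 genes) stood apart with the fewest genes, at totals of 17131113 and 14507038 reads. Bud31 was counted at 138, 96.8 and 158 CPM (counts scaled to library size with TMM factors) in wild type 1 to 3 and at 47.2, 67.6 and 80.4 CPM for Bud31-vKO 1 to 3. The groups did not overlap, with the deleted gene lower under the labels as read, and its exons overlap those of Ptcd1 on the opposite strand. By edgeR its log2 fold change was -1.01 (SE 0.39, adjusted p = 0.9997). A level of 3 reads, the limit that a count of 0 allows, equals 0.166 to 0.222 CPM depending on the library and covers counting error only.

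Markers of somatic cells were present beside those of germ cells. The summed level of 10 germ cell markers was 3184 to 3892 CPM for wild type and 1787 to 2233 CPM for Bud31-vKO, without overlap. All 10 had log2 fold changes below 0, with a median of -0.90. By edgeR 0 of the 10 were called (0% of all genes), and 3 had an unadjusted p under 0.05, all lower, beside 1.82% of all genes. The groups were apart for 4 (Ddx4, Mael, Elavl2 and Dmrt1), all lower, beside 6.39% of all genes, and overlapped for 6. The summed level of 7 stromal genes (Dcn, Lum, Col1a1, Col1a2, Col3a1, Tcf21 and Mfap4) was 10688 to 22270 and 9028 to 14983 CPM, with all 7 above 3 reads in all 6 libraries. The sum of 10 Sertoli cell markers reached 392, 105 and 271 CPM for wild type 1 to 3 and 1505, 97.0 and 270 CPM for Bud31-vKO 1 to 3. Different genes made up this sum by library. Clu held 854 CPM of it in Bud31-vKO library 1, while Wt1 held 177 CPM in wild type library 3 and 0 in Bud31-vKO library 2. Fshr and Dhh had reads only in wild type library 1 and Bud31-vKO library 1. Amh had no read in wild type library 2 or Bud31-vKO library 2, and Sox9 had none in wild type library 3 only. The sum of 6 peritubular myoid markers was 87.5 to 654 CPM for wild type and 85.0 to 289 CPM for Bud31-vKO. Acta2 made up most of this sum in each library (55.1 to 596 CPM). Cnn1, Tagln and Actg2 stayed at 5.08 CPM or less, and Myh11 had no read in wild type library 3. Des was above 3 reads in all 6 libraries. Leydig cell markers summed to 0 to 17.5 and 4.57 to 20.6 CPM. Of these 6 genes, Star was above 3 reads in 5 of 6 libraries (4.57 to 12.4 CPM), Cyp11a1 in 3 and Hsd3b1 in 2, while the defining genes Insl3 and Lhcgr were each at 0 in 5. Over all 6 libraries, endothelial markers lay between 0.116 and 220 CPM, macrophage markers between 12.1 and 188 CPM, lymphocyte markers between 11.7 and 369 CPM and erythroid markers between 1.07 and 212 CPM. Cd68 (11.9 and 13.3 CPM) made up nearly all of the macrophage sum in wild type library 3 and Bud31-vKO library 2. Adgre1, Cx3cr1, Mrc1, C1qa and C1qb were at 0 there. Ptprc (328 CPM) made up most of the lymphocyte maximum, in Bud31-vKO library 2. Gzma was at 32.0 CPM there, Cd52 at 4.71 and Nkg7 at 3.92 CPM, while Cd3e and Cd2 were at 0. In bulk libraries, fewer cells of a type and less RNA per cell cannot be told apart. The part of these cells in the results on ligands and receptors was not tested.

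**Figure D1:**
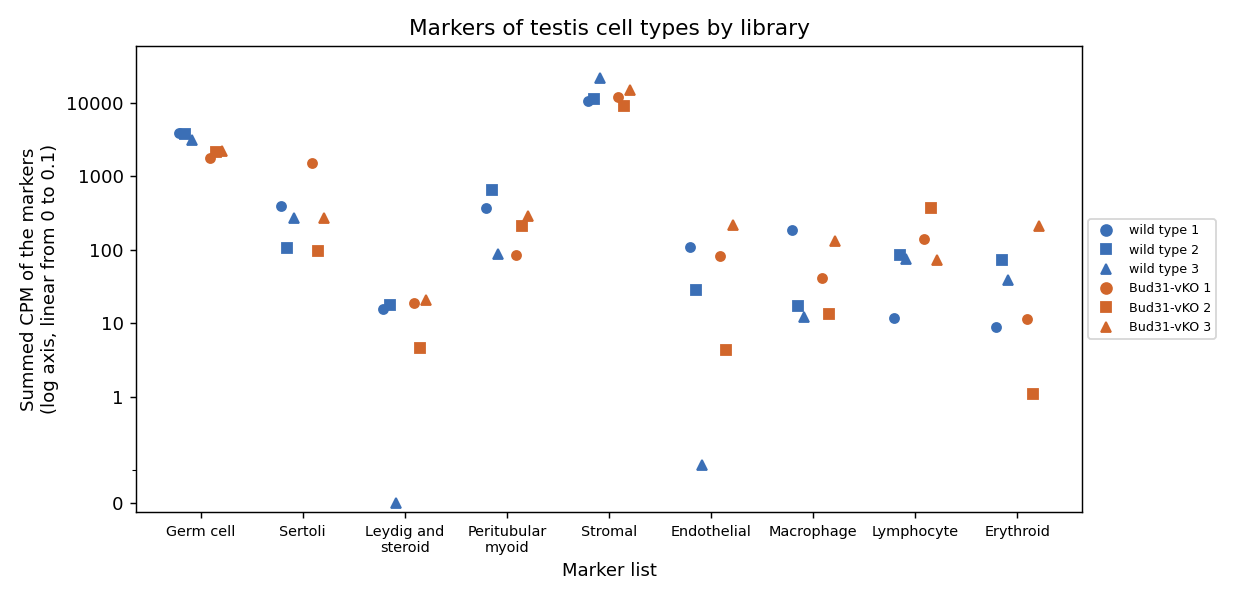
Summed CPM of the markers of 9 cell types (vertical log axis, linear from 0 to 0.1) in each of the 6 libraries, 1 point a library, blue for wild type and orange for Bud31-vKO. Stromal markers lie highest in each library, the germ cell sum is lower in Bud31-vKO (1787 to 2233 CPM) than in wild type (3184 to 3892 CPM), and the other sums overlap between the groups.

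Cxcl12 and Igf1 were the most abundant of the 10 genes in every library when levels were set per kb of exon, to compare genes of unlike length. The length used joins the exons of all annotated transcripts, not those of the transcripts present. The order of genes close in level, and ratios between genes, depend on that length. The median level over the 6 libraries was 44.2 CPM per kb for Cxcl12 and 27.1 CPM per kb for Igf1. The receptors Igf1r, Pdgfra and Fgfr1 followed with medians of 14.0, 12.1 and 6.68 CPM per kb. Kitl had a median of 4.29, Csf1 of 2.60, Cxcr4 of 0.900, Fgf2 of 0.726 and Gdnf of 0.516 CPM per kb. Cxcl12 was above Igf1, and Igf1 above Igf1r, in 6 of 6 libraries. Further down, Pdgfra was above Fgfr1, and Fgfr1 above Kitl, in 5 of 6 libraries. The steps below Igf1r, Kitl, Csf1 and Cxcr4 held in 4 of 6, and Fgf2 was above Gdnf in 2 of 6. No step below Igf1r thus held in every library. For each neighbouring pair the ranges over the 6 libraries overlapped, which does not judge the order within a library. Cxcl12 and Igf1 together held 89.0%, 89.4% and 99.99% of the summed level per kb of the 6 ligands in wild type 1 to 3, and 74.9%, 99.1% and 80.6% in Bud31-vKO 1 to 3. The share was thus highest in wild type library 3 and Bud31-vKO library 2.

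**Figure D2:**
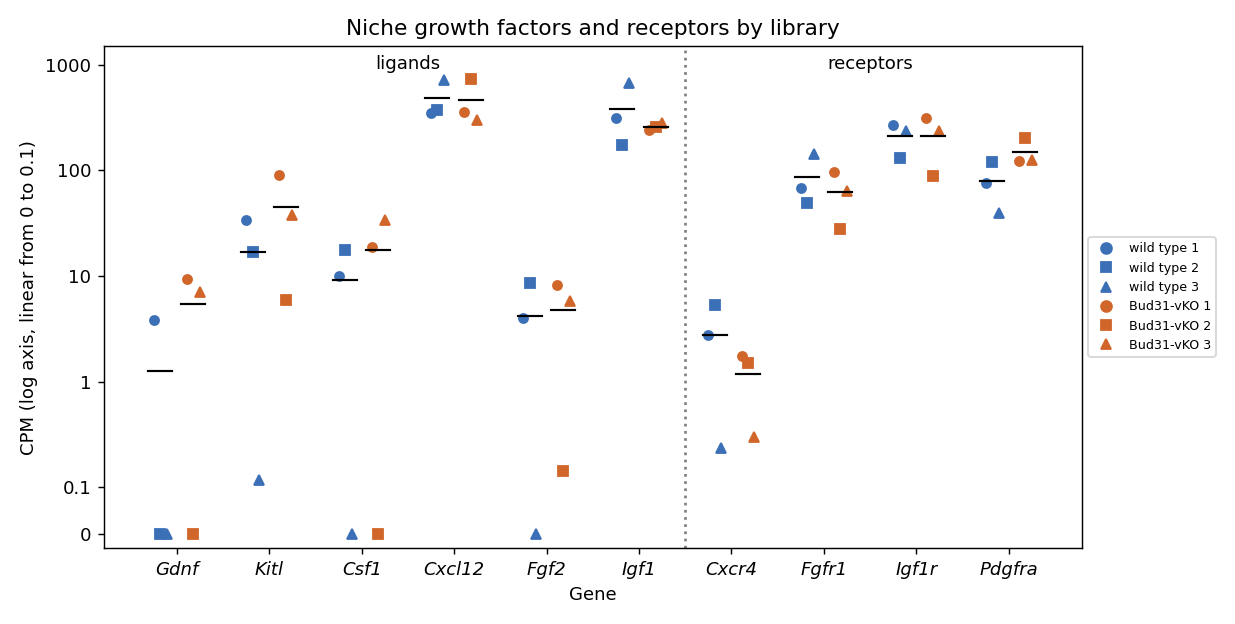
CPM of the 6 ligand and 4 receptor genes (vertical log axis, linear from 0 to 0.1) in each library, 1 point a library, with a bar at each group's mean. Gdnf, Csf1 and Fgf2 drop to 0 or near it in wild type library 3 and Bud31-vKO library 2, while Cxcl12 lies between 301 and 723 CPM in all 6 libraries.

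CXCL12 is the chemokine that guides cells with CXCR4, the pair by which germ cells and their precursors are known to home to the niche. Cxcl12 (ENSMUSG00000061353, chromosome 6 from 117168535 to 117181367 plus strand, GRCm38) was counted at 350, 370 and 714 CPM for wild type 1 to 3 and at 353, 723 and 301 CPM for Bud31-vKO 1 to 3. The high values were those of wild type library 3 and Bud31-vKO library 2, 1 in each group, and the groups overlapped. The mean was 478 ± 205 CPM for wild type and 459 ± 230 CPM for Bud31-vKO (SD, n = 3 each). By edgeR the log2 fold change was -0.06 with a 95% interval from -1.09 to 0.97, and it turned to 0.38 when wild type library 3 was left out, and to 0.13 or 0.17 when Bud31-vKO library 1 or 3 was. Per 1000 CPM of the stromal markers, Cxcl12 measured 32.8, 32.8 and 32.1 CPM for wild type and 29.1, 80.1 and 20.1 CPM for Bud31-vKO 1 to 3. Per 1000 CPM of the Sertoli markers it measured 893, 3538 and 2636 CPM against 234, 7455 and 1113 CPM. On the first scale the wild type libraries lay close together, while those of Bud31-vKO spread from 20.1 to 80.1 CPM. On the second scale the libraries of both groups lay apart.

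The receptor Cxcr4 (ENSMUSG00000045382, chromosome 1 from 128588199 to 128592293 minus strand) was scarce. It had 38, 95 and 4 reads for wild type 1 to 3 and 24, 21 and 4 reads for Bud31-vKO 1 to 3, or 2.77, 5.25 and 0.233 CPM against 1.75, 1.50 and 0.296 CPM. The lowest value of each group was in library 3, and the groups overlapped. The log2 fold change by edgeR was -1.21 with an interval from -5.25 to 2.83. It was -0.35 without wild type library 2, and -1.95 when both wild type library 3 and Bud31-vKO library 2 were left out. Per kb, Cxcl12 exceeded Cxcr4 15.6-fold to 678-fold, and in all 6 libraries. Ackr3, an atypical receptor that scavenges CXCL12, was counted at 5.03, 0.663 and 1.05 CPM for wild type and 16.01, 0.214 and 21.1 CPM for Bud31-vKO, highest in Bud31-vKO libraries 1 and 3.

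IGF1, a growth factor of somatic cells, and its receptor IGF1R were the only ligand and receptor of the 10 that both reached 88.4 CPM or more in each library. Igf1 (ENSMUSG00000020053, chromosome 10 from 87858265 to 87937042 plus strand) was counted at 312, 172 and 665 CPM for wild type 1 to 3 and at 239, 258 and 279 CPM for Bud31-vKO 1 to 3. The Bud31-vKO values lay close together and inside the wild type range, of which wild type library 3 was the top. The mean was 383 ± 254 CPM for wild type and 259 ± 20.0 CPM for Bud31-vKO (SD, n = 3 each). By edgeR the log2 fold change was -0.57 with an interval from -1.67 to 0.53, and 0.12 without wild type library 3. Per 1000 CPM of stromal markers, Igf1 measured 29.2, 15.3 and 29.8 CPM for wild type and 19.6, 28.6 and 18.6 CPM for Bud31-vKO, so wild type library 3 did not stand apart on that scale.

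Igf1r (ENSMUSG00000005533, chromosome 7 from 67952827 to 68233668 plus strand), a receptor tyrosine kinase, was counted at 270, 132 and 233 CPM for wild type and at 309, 88.4 and 237 CPM for Bud31-vKO 1 to 3. In both groups the second library was the lowest. The means were 211 ± 71.5 and 211 ± 113 CPM (SD, n = 3 each), and the log2 fold change by edgeR was 0.00 with an interval from -1.16 to 1.16, so its direction cannot be read. It was -0.26 when wild type library 2 was left out, and -0.36 or -0.09 when Bud31-vKO library 1 or 3 was. Per kb, Igf1 exceeded Igf1r 1.31-fold to 4.95-fold, in 6 of 6 libraries. In CPM, Igf1 was below Igf1r only in Bud31-vKO library 1 (239 against 309 CPM).

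The promoters of the 2 most abundant ligands are shown here, since these genes carried most of the ligand RNA. The windows reach from 250 bases before to 50 bases after a RefSeq start (GRCm38.p6), at chr6:117168285-117168584 on the plus strand for Cxcl12 and chr10:87860861-87861160 on the plus strand for Igf1. Capitals mark the GC box GGGCGG, the CCAAT box CCAAT and the TATA box TATAAA on either strand, and neighbouring GC boxes can overlap.
Cxcl12: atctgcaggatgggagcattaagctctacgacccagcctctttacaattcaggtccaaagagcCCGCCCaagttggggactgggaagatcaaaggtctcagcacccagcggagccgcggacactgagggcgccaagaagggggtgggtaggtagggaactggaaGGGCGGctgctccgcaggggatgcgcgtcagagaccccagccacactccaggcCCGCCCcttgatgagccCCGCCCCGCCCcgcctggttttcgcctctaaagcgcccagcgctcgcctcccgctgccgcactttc
Igf1: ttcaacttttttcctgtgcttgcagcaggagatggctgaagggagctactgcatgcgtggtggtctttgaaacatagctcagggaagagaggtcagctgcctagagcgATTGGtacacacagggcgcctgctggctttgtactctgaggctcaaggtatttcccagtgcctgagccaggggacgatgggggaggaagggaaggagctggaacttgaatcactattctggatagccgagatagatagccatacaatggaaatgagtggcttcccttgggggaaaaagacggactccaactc
The Cxcl12 window held 5 GC boxes, a GC content of 64.7% and 20 CG pairs. That of Igf1 held 1 CCAAT box, a GC content of 52.3% and 6 CG pairs, near the medians of 52.7% and 7 over 32851 windows. A GC box is found in 35.7% of those windows, a CCAAT box in 37.4% and a TATA box in 13.6%. A match describes letters only.

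GDNF is the main known signal for stem cell self-renewal. Gdnf (ENSMUSG00000022144, chromosome 15 from 7810846 to 7837575 plus strand) had 52, 0 and 0 reads for wild type 1 to 3 and 127, 0 and 95 reads for Bud31-vKO 1 to 3. That is 3.79 CPM in 1 wild type library and 9.28 and 7.02 CPM in 2 Bud31-vKO libraries, with no read elsewhere, and the groups overlapped. The log2 fold change by edgeR was 2.10 with an interval from -4.53 to 8.73, so its direction cannot be read. With each library left out it was 1.48 to 9.38, the highest without wild type library 1, when wild type holds no Gdnf read and the fitted value depends on the prior count and is no bound. Of all 6 libraries, these 3 also had the most genes with reads. Of the 10 Sertoli markers, 10, 10 and 8 were above 3 reads in these 3 libraries (wild type 1, Bud31-vKO 1 and 3), and 6, 6 and 4 in those without Gdnf reads (wild type 2 and 3, Bud31-vKO 2). Per 1000 CPM of Sertoli markers, Gdnf measured 9.67 CPM in wild type library 1 and 6.17 and 26.0 CPM for Bud31-vKO libraries 1 and 3.

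The receptors of GDNF were found where the ligand was not. Gfra1 was counted at 102, 227 and 99.2 CPM for wild type and 43.6, 240 and 61.3 CPM for Bud31-vKO 1 to 3, and Ret at 116, 199 and 74.6 CPM against 78.0, 119 and 134 CPM. In the 3 libraries with both, Gfra1 exceeded Gdnf per kb 3.15-fold to 17.99-fold and Ret exceeded it 4.56-fold to 16.6-fold. In the other 3 libraries, Gfra1 was at 99.2 to 240 CPM with Gdnf at 0 reads. The log2 fold changes by edgeR were -0.31 for Gfra1 and -0.24 for Ret, with intervals from -1.92 to 1.295 and from -1.29 to 0.81. In the 4 libraries with the most genes, Gfra1 had -1.64 (adjusted p = 0.753). When wild type library 2 was left out both turned above 0, to 0.19 for Gfra1 and 0.20 for Ret, and Gfra1 also did so, to 0.11, when Bud31-vKO library 1 was.

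KIT ligand is the Sertoli cell factor for differentiating spermatogonia. Kitl (ENSMUSG00000019966, chromosome 10 from 100015630 to 100100416 plus strand) was counted at 33.8, 16.9 and 0.116 CPM for wild type 1 to 3, the last from 2 reads. In Bud31-vKO 1 to 3 it was at 90.3, 5.92 and 37.7 CPM. Bud31-vKO library 1, the highest, also held the largest sum of Sertoli markers, and the groups overlapped. The mean was 16.9 ± 16.8 CPM for wild type and 44.7 ± 42.6 CPM for Bud31-vKO (SD, n = 3 each). By edgeR the log2 fold change was 1.40 with an interval from -2.25 to 5.05, and it was 0.38 when Bud31-vKO library 1 was left out, or 2.38 when wild type library 1 was. Per 1000 CPM of Sertoli markers, Kitl measured 86.1, 162 and 0.430 CPM for wild type and 60.0, 61.1 and 139 CPM for Bud31-vKO. On that scale Bud31-vKO libraries 1 and 2 lay together, although different genes made up the Sertoli sum in each library.

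Kit, the receptor that the sort selected against, was counted at 28.9, 63.0 and 0.349 CPM for wild type and 24.0, 0.500 and 14.0 CPM for Bud31-vKO. It was near 0 in wild type library 3 and Bud31-vKO library 2. Per kb Kitl was above Kit in 4 of 6 libraries, 17.9-fold in Bud31-vKO library 2 and 1.76-fold to 5.66-fold in wild type library 1 and Bud31-vKO libraries 1 and 3. It was below Kit in wild type library 2 (0.405-fold), while both were near 0 in wild type library 3.

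CSF1 is a cytokine of macrophages that in the testis is known from Leydig and myoid cells. Csf1 (ENSMUSG00000014599, chromosome 3 from 107741048 to 107760469 minus strand) was counted at 9.92, 17.6 and 0 CPM for wild type and 18.7, 0 and 34.1 CPM for Bud31-vKO 1 to 3. It had 136 reads or more in 4 libraries and none in the other two, wild type library 3 and Bud31-vKO library 2. The log2 fold change by edgeR was 0.94 with an interval from -4.50 to 6.38, and it was 0.03 when Bud31-vKO library 3 was left out, or 1.81 when wild type library 2 was. Its receptor Csf1r measured 30.5, 1.16 and 0 CPM for wild type and 11.7, 0 and 23.2 CPM for Bud31-vKO, at 0 in the same libraries as the ligand. Its log2 fold change of 0.14 turned to -0.40 or -0.43 when wild type library 2 or 3 was left out, and to -0.86 when Bud31-vKO library 3 was; without wild type library 1 it was 4.30, and its exons overlap Hmgxb3. In wild type library 2, Csf1 was 16.6-fold above Csf1r per kb, and in the 3 other libraries with both the ratio lay between 0.356 and 1.75.

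FGF2, a growth factor used to culture stem cells, had little RNA here. Fgf2 (ENSMUSG00000037225, chromosome 3 from 37348346 to 37410108 plus strand) was counted at 4.01, 8.62 and 0 CPM for wild type and 8.19, 0.143 and 5.84 CPM for Bud31-vKO 1 to 3. The lowest values were 0 and 2 reads, in wild type library 3 and Bud31-vKO library 2. The log2 fold change by edgeR was 0.17 with an interval from -5.005 to 5.34. It turned to -0.41 when wild type library 3 was left out, and to -0.48 or -0.02 when Bud31-vKO library 1 or 3 was. The exons of Fgf2 overlap those of Nudt6 on the opposite strand and of the predicted gene Gm43439, and without strand in the counting their reads cannot be separated.

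Fgfr1 (ENSMUSG00000031565, chromosome 8 from 25513654 to 25575718 plus strand), the receptor tyrosine kinase for FGF2, was counted at 68.4, 48.8 and 142 CPM for wild type and 96.4, 27.7 and 63.4 CPM for Bud31-vKO 1 to 3. Wild type library 3 was the highest and Bud31-vKO library 2 the lowest, so the 2 libraries with few genes lay at opposite ends. The mean was 86.4 ± 49.0 CPM against 62.5 ± 34.4 CPM (SD, n = 3 each), with exons that overlap Gm16159 on the opposite strand. The log2 fold change by edgeR was -0.47 with an interval from -1.89 to 0.96, and 0.11 without wild type library 3. Fgfr1 exceeded Fgf2 per kb 3.89-fold to 11.7-fold in the 4 libraries that held both above 3 reads.

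The promoters of Kitl and Csf1 are shown as those of ligands with 136 reads or more in at least 4 libraries (Csf1) or 83 or more in 5 (Kitl), and 0 to 2 reads in wild type library 3. The windows lie at chr10:100015571-100015870 on the plus strand for Kitl and chr3:107760420-107760719 on the minus strand for Csf1, with capitals as above.
Kitl: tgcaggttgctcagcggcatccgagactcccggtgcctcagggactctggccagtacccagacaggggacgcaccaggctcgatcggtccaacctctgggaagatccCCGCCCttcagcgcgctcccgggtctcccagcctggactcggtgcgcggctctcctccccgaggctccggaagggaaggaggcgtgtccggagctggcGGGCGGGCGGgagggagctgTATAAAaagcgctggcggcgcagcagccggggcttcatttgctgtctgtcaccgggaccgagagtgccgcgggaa
Csf1: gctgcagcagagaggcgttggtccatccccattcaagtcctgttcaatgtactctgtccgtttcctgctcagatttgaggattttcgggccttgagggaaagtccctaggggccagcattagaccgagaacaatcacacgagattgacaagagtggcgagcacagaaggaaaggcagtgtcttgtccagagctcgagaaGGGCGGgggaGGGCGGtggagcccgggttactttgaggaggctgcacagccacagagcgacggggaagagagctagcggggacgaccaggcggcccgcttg
The Kitl window held 3 GC boxes and 1 TATA box at a GC content of 68.7%, with 28 CG pairs. The Csf1 window held 2 GC boxes and none of the other motifs at 58.7%, with 16 CG pairs.

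**Figure D3:**
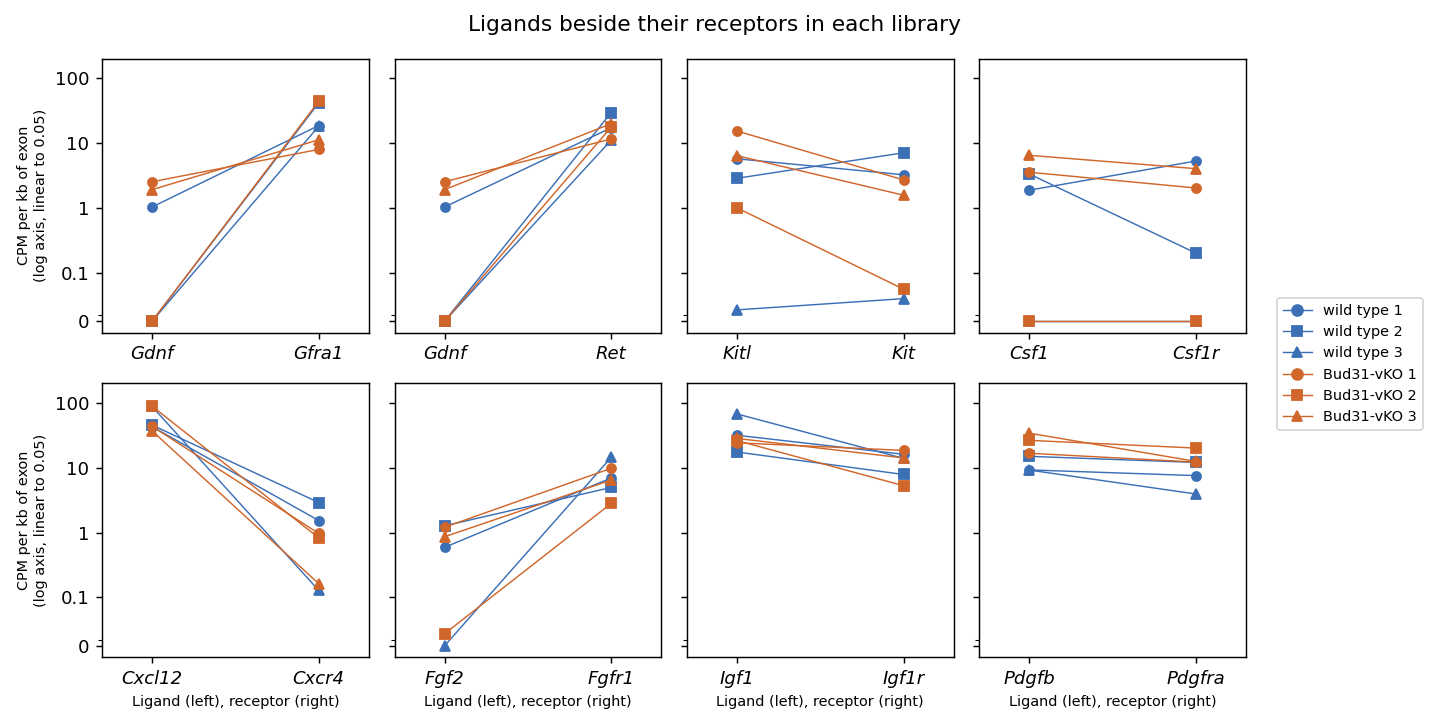
CPM per kb of exon (vertical log axis, linear from 0 to 0.05) of ligands (left) and their receptors (right), with 1 line a library, blue for wild type and orange for Bud31-vKO. Cxcl12 lies at least 15.6-fold above Cxcr4 in all 6 libraries, Igf1 and Pdgfb lie above their receptors in all 6, and Gdnf and Fgf2 lie below theirs.

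Pdgfra was the sole gene of the 10 whose groups did not overlap. Pdgfra (ENSMUSG00000029231, chromosome 5 from 75152292 to 75198215 plus strand), a receptor tyrosine kinase of stromal and interstitial cells, was counted at 75.5, 120 and 39.3 CPM for wild type 1 to 3 and at 122, 200 and 125 CPM for Bud31-vKO 1 to 3. Wild type library 3 was the lowest and Bud31-vKO library 2 the highest, and the nearest values of the groups, 120 and 122 CPM, lay almost together. Its exons overlap Gm42802 and Gm42803 on the opposite strand and Mir7025 on the same strand. The mean was 78.4 ± 40.6 CPM for wild type and 149 ± 44.4 CPM for Bud31-vKO (SD, n = 3 each). By edgeR the log2 fold change was 0.93 (SE 0.49, interval from -0.20 to 2.05), with an unadjusted p of 0.0937 and an adjusted p of 0.9997. Groups without overlap made up 11.2% of all genes tested, 4.76% with Bud31-vKO higher, and 1 of 10 genes is near that share. Without wild type library 3 and Bud31-vKO library 2, the log2 fold change was 0.34. Per 1000 CPM of stromal markers, Pdgfra measured 7.07, 10.7 and 1.76 CPM for wild type and 10.04, 22.2 and 8.33 CPM for Bud31-vKO, and per 1000 CPM of Sertoli markers 193, 1151 and 145 CPM against 81.0, 2065 and 462 CPM. The groups overlapped on both scales.

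Of the PDGF ligands, Pdgfb also showed no overlap. Pdgfb, whose dimer binds both PDGF receptors, was counted at 38.4, 62.1 and 38.1 CPM for wild type and 69.2, 109 and 141 CPM for Bud31-vKO 1 to 3. The log2 fold change by edgeR was 1.21 (SE 0.46), with an unadjusted p of 0.0315 and an adjusted p of 0.9997, and each library left out in turn gave 0.95 to 1.47. Pdgfa measured 35.7, 16.7 and 6.17 CPM against 88.9, 19.2 and 42.9 CPM, with overlap and a log2 fold change of 1.37, or 0.69 when Bud31-vKO library 1 was left out and 2.13 when wild type library 1 was. Pdgfc measured 37.0, 8.40 and 21.8 CPM against 25.8, 0.0714 and 8.43 CPM, with one of -0.97, or -2.39 without Bud31-vKO library 1 and -0.38 without Bud31-vKO library 2. Per kb, Pdgfb exceeded Pdgfra 1.22-fold to 2.72-fold in all 6 libraries. That order rests on exon lengths of 4161 bp for Pdgfb and 10024 bp for Pdgfra. In CPM, Pdgfb was above Pdgfra only in Bud31-vKO library 3 (141 against 125 CPM).

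The promoter of Pdgfra, the gene with the smallest p of the 10, lies at chr5:75152001-75152300 on the plus strand and is shown with the same motifs searched.
Pdgfra: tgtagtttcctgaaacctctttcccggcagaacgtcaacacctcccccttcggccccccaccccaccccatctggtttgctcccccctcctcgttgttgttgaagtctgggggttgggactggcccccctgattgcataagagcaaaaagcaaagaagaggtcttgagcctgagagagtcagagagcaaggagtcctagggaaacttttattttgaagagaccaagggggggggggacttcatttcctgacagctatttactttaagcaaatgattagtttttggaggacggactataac
It held none of the 3 motifs, at a GC content of 51.0% with 5 CG pairs, and the absence says only that these letters are not in this window.

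The comparison of the genotypes called none of the 10 genes. All 10 passed the filter on low counts, and 0 of 10 had an adjusted p under 0.05 by edgeR, where 0% of the 15240 genes tested did. At an unadjusted p under 0.05 there were 0 of 10 and 2.91% of all genes. DESeq2 called 0.314% of genes and 0 of the 10, and limma-voom called none. Of the 10 genes, 6 had a log2 fold change above 0 (51.1% of all genes) and 4 below. The median was 0.08, beside 0.02 over all genes tested. A fitted change of at least 2-fold in size was found for Gdnf, Kitl and Cxcr4, 3 of 10, beside 32.3% of all genes. The standard error was 0.45 to 0.62 for Cxcl12, Igf1, Pdgfra, Igf1r and Fgfr1, and 1.57 to 2.86 for Kitl, Cxcr4, Fgf2, Csf1 and Gdnf. At that spread a change of the second set by several fold, in either direction, was not detectable. For the first set the limit was also wide. Sdc1 at a log2 fold change of -1.89 (SE 0.61) and Etv5 at -1.60 (SE 0.54) were not called by edgeR either (adjusted p = 0.9997 for each).

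**Figure D4:**
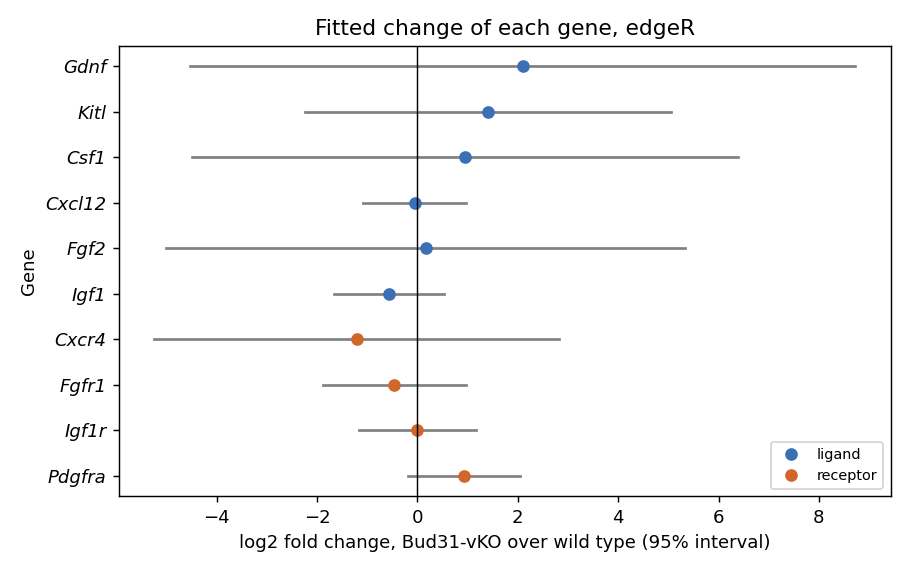
Fitted log2 fold change of Bud31-vKO over wild type by edgeR (horizontal axis) for the 6 ligands (blue) and 4 receptors (orange), with lines for the 95% interval. Every interval includes 0, and those of Gdnf, Csf1, Fgf2 and Cxcr4 are the widest.

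Gdnf and Csf1 had no read in wild type library 3 or Bud31-vKO library 2, and Gdnf had none in wild type library 2 either. That is 2 of 10 genes, beside 12.1% of all genes tested without a read in the first pair. With Fgf2, 3 of 10 had at most 3 reads in that pair, beside 14.1% of all genes. The scarce receptor Cxcr4 differed, with 4 and 21 reads there. As wild type library 3 and Bud31-vKO library 2 belong to different genotypes, leaving both out keeps 2 libraries of each. Among the 4 that remain, the log2 fold changes were 2.12 for Gdnf, 0.95 for Csf1 and 0.16 for Fgf2, and the lowest adjusted p of the 10 genes was 0.791 by edgeR.

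The wider families of these signals were read from 8 lists of 83 genes, of which 68 were tested. By edgeR 0 were called over all genes, and 3 higher and 3 lower had an unadjusted p under 0.05, beside 1.08% and 1.82% of all genes. The median log2 fold change was -0.12, with 32 above 0 and 36 below. Groups did not overlap for 4 genes higher in Bud31-vKO (Fgfr2, Insr, Pdgfb and Spry2) and 6 lower (Cxcl16, Etv5, Gfra2, Gfra4, Inhba and Sdc1), beside 4.76% and 6.39% of all genes.

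Among the insulin-like growth factor genes, 8 of the 11 tested had fold changes above 0 (median 0.48), and 1 had an unadjusted p under 0.05. That was Insr, the insulin receptor and nearest relative of Igf1r, counted at 32.4, 40.8 and 31.8 CPM for wild type and 83.3, 68.1 and 72.8 CPM for Bud31-vKO. Its log2 fold change by edgeR was 1.09 (SE 0.46, adjusted p = 0.9997). The groups did not overlap for Insr, while they overlapped for Igf1r. Igfbp2, which binds IGFs, measured 26.3, 80.0 and 122 CPM against 35.7, 30.1 and 35.3 CPM.

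In the FGF list 4 of 10 tested genes were above 0, with a median of -0.42. Sdc1, a heparan sulphate proteoglycan that presents FGFs, was counted at 62.0, 114 and 93.2 CPM for wild type and 17.5, 41.5 and 13.9 CPM for Bud31-vKO. Its log2 fold change by edgeR was -1.89 (SE 0.61, adjusted p = 0.9997), and -2.51 without Bud31-vKO library 2. Fgfr2 measured 20.9, 37.7 and 33.4 CPM against 41.4, 87.7 and 39.3 CPM, a pattern without overlap, while Fgfr1 overlapped.

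In the GDNF family 1 of 8 tested genes was above 0, with a median of -0.38 and none at an unadjusted p under 0.05. Gfra4, the co-receptor for persephin, was counted at 25.3, 14.0 and 23.6 CPM for wild type and 1.17, 7.92 and 1.55 CPM for Bud31-vKO. Gfra2, the co-receptor for neurturin, was at 14.6, 34.3 and 31.4 CPM against 6.65, 0 and 0 CPM. The list of KIT and CSF1R relatives had only Kit and Csf1r tested.

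In the chemokine list 3 of 5 tested genes were above 0, with a median of 1.07. Cxcl1, a neutrophil chemokine, was at 82.0, 83.5 and 59.8 CPM for wild type and 778, 55.5 and 341 CPM for Bud31-vKO, with overlap. Its log2 fold change by edgeR was 2.38 (SE 0.80, adjusted p = 0.9997), and 1.41 without Bud31-vKO library 1. Cxcl1 was lowest of all 6 libraries in Bud31-vKO library 2. Cxcl16 measured 10.4, 6.41 and 17.8 CPM against 1.32, 0 and 3.70 CPM.

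Targets and feedback genes of receptor tyrosine kinases had 6 of 17 above 0 and a median of -0.22. Etv5, a transcription factor induced by GDNF and FGF2, was counted at 152, 338 and 237 CPM for wild type and 48.7, 143 and 48.7 CPM for Bud31-vKO. Its log2 fold change by edgeR was -1.60 (SE 0.54, adjusted p = 0.9997), and -2.31 without Bud31-vKO library 2. Spry2, a feedback inhibitor of the same receptors, was at 4.08, 6.57 and 3.96 CPM against 23.8, 17.1 and 16.3 CPM, the opposite direction, with a log2 fold change of 1.97 (SE 1.10). The summed germ cell markers were also lower in Bud31-vKO, with 4 of 10 markers apart, and their part in the level of Etv5 was not tested. Other transcription factor genes of the list did not share its fall. Log2 fold changes by edgeR were 0.80 for Bcl6b, 0.76 for Lhx1, 0.56 for Pou3f1, -0.07 for Etv4 and -0.70 for Etv1, each with overlap. Etv5 alone is therefore not read as a measure of signalling.

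Other niche factors had 7 of 10 tested genes above 0 and a median of 0.97. Inhba, a subunit of activin, was counted at 220, 183 and 478 CPM for wild type and 177, 95.1 and 148 CPM for Bud31-vKO, with a log2 fold change by edgeR of -1.07 (SE 0.45, adjusted p = 0.9997). It was -0.50 without wild type library 3, and -0.29 when Bud31-vKO library 2 was left out as well. Jag1, a Notch ligand, measured 23.1, 22.9 and 42.9 CPM against 69.4, 164 and 24.5 CPM.

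The genes closest in pattern to each of the 10 were found by the root mean square difference of centred log2 CPM over the 6 libraries, among 8418 or 8419 candidates. The closest was Klhl8 to Cxcl12, at 0.061, with 14.9, 16.8 and 33.6 CPM for wild type and 15.6, 35.0 and 14.3 CPM for Bud31-vKO 1 to 3. Fbxo11 was nearest to Fgfr1 (0.0988), Klf2 to Igf1r (0.121), March2 to Igf1 (0.128), Pnrc1 to Pdgfra (0.142) and Acacb to Csf1 (0.227). Acacb had no read in wild type library 3 or Bud31-vKO library 2. Csnk1g3 was nearest to Kitl (0.374), Rhot1 to Fgf2 (0.381), Osbpl3 to Cxcr4 (0.472) and Egfr to Gdnf (0.997). The most distant neighbours were those of Gdnf, Cxcr4, Fgf2 and Kitl. Candidates had a mean log2 CPM of at least 4, above the means of Gdnf (1.80), Cxcr4 (1.07), Fgf2 (2.20) and Csf1 (3.76). Scarce genes were therefore not set beside genes of their own level, and nothing is read from their distances.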

How the data were processed

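RNA was measured in 3 wild type and 3 Bud31-vKO Smart-Seq2 libraries. The authors deposited unscaled counts of reads for each Ensembl identifier. The submitters' processing notes name bcl2fastq and mm10. The aligner, the counter, the annotation and whether strand was used were not given in the sources used here. RIP profiles of the series were not analysed here. Totals were 13240704 to 18744466 reads.

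Of 51912 identifiers, 51719 (99.6%) were found in GENCODE M21 (GRCm38, that is mm10), which gave symbols, positions and exon lengths. A filter by edgeR 4.0.16 (filterByExpr, minimum count 10, total 15) left 15240 genes. They were scaled by TMM and compared by the quasi-likelihood F test without covariates, with Benjamini-Hochberg adjustment over all genes at 0.05. Intervals are 95%. An exact permutation test of 3 against 3 cannot go below 0.1, so none was run. CPM carry the TMM factors, log2 CPM a prior count of 2, and SD is over 3 libraries. The fit was first run on simulated data, where a pass was required only at a dispersion set to 0.05. These libraries were far more variable, with a biological coefficient of variation of 119%, so that check does not show what was detectable here.

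The 10 genes, the lists and the tests were chosen with earlier results of these data known. Besides the 10, Bud31 and the receptor partners, the text names the 2 genes of smallest p in each pathway list and the gene of nearest pattern to each member (mean log2 CPM of at least 4). Names outside that rule were chosen after values were seen. Marker lists covered germ, Sertoli, Leydig, peritubular myoid, stromal, endothelial, macrophage, lymphocyte and erythroid cells.

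Each result was recomputed with scaling by RLE, by the upper quartile or by totals, without a filter, with 5 CPM in 3 libraries, DESeq2 1.42.0, limma-voom (3.58.1), robust dispersion, a block for the library number, each library left out, and the 4 libraries with the most genes. Promoters came from RefSeq windows, found for 9 of the 10 genes. R 4.3.3, Python 3.11.15 and matplotlib 3.10.9 were used.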

Additional observations from a re-analysis of the deposited data

How the results depend on the processing

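None of the 10 genes was called by edgeR, DESeq2 or limma-voom under any alternative, nor with any library left out (0 to 0 called). A filter of 5 CPM in 3 libraries left 8 of the 10 tested, without Gdnf and Cxcr4. Over the whole table edgeR called 0 genes, 7 with no filter on low counts, and DESeq2 called 47. Of 158 fold changes of the 10 genes recomputed, 143 kept their direction and 15, of 5 genes, turned. With each library left out in turn the log2 fold change ranged from -0.54 to 0.38 for Cxcl12, -0.48 to 1.22 for Fgf2, -0.91 to 0.11 for Fgfr1, -0.92 to 0.12 for Igf1 and -0.36 to 0.38 for Igf1r. Among the partners it ranged from -1.43 to 0.19 for Gfra1, -0.49 to 0.20 for Ret and -0.86 to 4.30 for Csf1r. In the 4 libraries with the most genes Fgfr1 had 0.46 and Igf1 0.11, and with limma-voom Igf1r had -0.10. The cause of these turns was not tested. With the replicate block Igf1r had -0.12 and Csf1r -1.02, and the unadjusted p of Pdgfra was 0.0423, as it was 0.0384 without wild type library 2, while its adjusted p was 1.0 in both. The block called 0 genes, as did the fit without it. Same-numbered libraries deviated together with r of 0.191, 0.0407 and -0.0756 across genes, and those of unlike number with r of -0.208 to 0.110. Deviations from the mean of 3 libraries are tied to each other, so these values do not decide whether the number pairs libraries. The labels do not say that it does, and the main fit has no block. The median of the 10 genes was 0.01 to 0.52 under all alternatives but -0.12 without Bud31-vKO library 1. Gdnf, Fgf2 and Cxcr4 had 156 reads or fewer in each library. Gdnf had no read in wild type libraries 2 and 3, those with the highest totals.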

Other observations

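Several niche factors of the list that did not enter the results by rule were singled out after their values were seen. Csf2, a cytokine of granulocytes and macrophages, and Lif, a cytokine of stem cell culture, were without a read in wild type. Csf2 was at 1.54 and 1.48 CPM (21 and 20 reads) and Lif at 0.877 and 2.22 CPM (12 and 30 reads) for Bud31-vKO libraries 1 and 3. Both were at 0 in Bud31-vKO library 2, and neither passed the filter on low counts, so neither was tested. Inhbb, another activin subunit, was at 14.6, 1.27 and 0 CPM for wild type and 108, 65.9 and 12.3 CPM for Bud31-vKO 1 to 3, with a log2 fold change of 3.56 by edgeR that did not pass the test (adjusted p = 0.9997). Pdgfd, a PDGF ligand, was at 182 CPM in wild type library 3 and 75.6 CPM in Bud31-vKO library 2, and at 8.04 to 16.2 CPM in the others, while Gdnf, Csf1 and Fgf2 had 0 to 2 reads in the first pair of libraries.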
